A study of Mus musculus with 24 samples.

Results

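The liver response to a high-fat diet was read in WT mice from 6 of the 24 libraries of the series, 3 from livers on a high-fat diet (HFD) and 3 from livers on a regular diet (RD), chosen by their titles and described across all genes. Both groups were floxed at FoxO1 and PPARα (genotype FoxO1lox/lox; PPARαlox/lox), with no Cre named for them. The diets were given for 3 weeks and the livers were taken after a 4 h fast. RNA was extracted with Trizol and made into TruSeq stranded mRNA libraries. The other 18 libraries come from livers without FoxO1 (LFKO), without PPARα (LPKO) or without both (LFPKO), made with Albumin-Cre, on the same diets. No source used here gives sex, age, strain or what the diets were made of. The labels number 3 replicates a group and do not say whether each came from its own mouse. The p-values therefore measure how far these samples differ, which may be technical. Whether RD and HFD livers were handled together is also not given, so diet and such a batch cannot be told apart.

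In the liver, SREBP transcription factors switch on cholesterol and fatty acid synthesis when cell sterols are low or insulin is high, and sterols hold them back through the Insig proteins. PPARα is a nuclear receptor for fatty acids that drives fat oxidation and the Cyp4a fatty acid hydroxylases. CAR and PXR are receptors for foreign compounds that raise cytochrome P450 and conjugation genes. The major urinary proteins (Mup) are small pheromone carriers that mouse liver secretes in large amounts, more in males, under growth hormone and STAT5.

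Values are TPM, each gene's share of all transcripts corrected for length, as the authors deposited them. TPM keeps no read counts, so depth is unknown. Differences are log2 fold changes ± SE of HFD over RD on the log2(TPM + 1) scale. Adding 1 makes changes of weakly expressed genes look smaller than they were. A gene was called where limma's adjusted p was under 0.05. Because TPM are shares, a rise of very abundant transcripts lowers every other value. A second scale, termed Mup-free, therefore left the Mup genes out and rescaled the rest to a common total. Differences of Mup genes are given as deposited, and those of other genes Mup-free, for some genes also as deposited. "Rose" and "fell" are kept for genes called on both scales, and for Mup genes as deposited.

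The Mup genes took 11.7%, 7.99% and 8.61% of the listed TPM in the RD livers and 20.1%, 30.7% and 24.6% in the HFD livers. Their share was 9.44% ± 1.99 on the regular and 25.1% ± 5.33 on the high-fat diet (SD, n = 3), 2.66-fold higher, and the groups did not overlap (exact permutation p = 0.1, two-sided, the smallest p that 3 against 3 libraries allow). The summed Mup level went from a mean of 93447 to 242727 TPM. Of that difference, 5 genes (Mup7, Mup19, Mup11, Mup17 and Mup14) made up 79.9%, and Mup7 alone 32.8%. The albumin gene Alb, the other large liver transcript, took 4.59% ± 0.141 of the listed TPM on the regular and 2.80% ± 0.542 on the high-fat diet (SD, n = 3). Transcripts of the mitochondrial genome took 21.6% ± 1.54 and 20.0% ± 2.94 (SD, n = 3).

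The 20 tested Mup genes lie in 1 cluster on chromosome 4 (60066469 to 62150863, GRCm38, GENCODE M21). Most are near copies of each other. From 0% to 69.9% of a Mup gene's 31-base words occur in no other annotated gene (median 12.3%), against a median of 98.9% for the other 265 genes named by the same rules. Such words make up most of Mup3 (69.9%), Mup21 (66.15%) and Mup5 (63.0%). Mup15, Mup19 and Mup22 have no such word, so their single values depend on how reads were split among copies. Of a Mup gene's words, 0.446% to 6.37% also occur in genes outside the family, so the summed share is not free of such splitting either. The resemblance runs into the promoters. The bases before the annotated starts of Mup11, Mup17 and Mup3 are shown here because Mup11 and Mup17 rose and Mup3 was not called. They are RefSeq windows of GRCm38.p6, minus strand, 5′ to 3′, with the longest run shared by all 3 (22 bases) in capitals.

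Mup11, chr4:60662396-60662545: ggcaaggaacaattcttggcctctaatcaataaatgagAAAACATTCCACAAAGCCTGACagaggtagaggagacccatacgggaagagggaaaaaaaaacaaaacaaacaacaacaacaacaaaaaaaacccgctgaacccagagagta

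Mup17, chr4:61595833-61595982: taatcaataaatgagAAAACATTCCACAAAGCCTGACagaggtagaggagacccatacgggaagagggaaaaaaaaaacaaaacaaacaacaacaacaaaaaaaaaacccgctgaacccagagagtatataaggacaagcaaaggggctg

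Mup3, chr4:62087318-62087467: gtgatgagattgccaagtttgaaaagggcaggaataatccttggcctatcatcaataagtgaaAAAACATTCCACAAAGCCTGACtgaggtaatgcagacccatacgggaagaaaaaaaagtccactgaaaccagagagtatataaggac

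Across 14 Mup promoters in that table, pairs were 41.8% to 97.6% identical over 250 bases, with a median of 71.6%. The windows were aligned end to end and gaps counted as differences. A shift between annotated starts, as between Mup11 and Mup17, therefore also lowers the value.

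Of the 20 Mup genes, 12 rose and none was called lower (median log2 fold change 1.93 as deposited, against -0.29 for all 10551 tested genes). In the same comparison 1.05% of tested genes were called higher. Mup7, at chromosome 4 60066469 to 60070475, stood at 6465, 11850 and 10299 TPM on the regular diet and 50897, 68560 and 56067 TPM on the high-fat diet, an increase of 2.65 ± 0.79 (limma adjusted p = 0.0195). Its HFD livers were all above its RD livers, and it was called in 4 of 6 fits that left out a WT library (limma adjusted p up to 0.0812, without HFD replicate 2). Mup11 went from 8918, 6593 and 7782 to 23676, 37709 and 30423 TPM (1.96 ± 0.42, limma adjusted p = 0.00323). Mup14 went from 3274, 2425 and 3183 to 11252, 19008 and 12088 TPM (2.23 ± 0.51, limma adjusted p = 0.00517). All 3 genes separated the diets in every library.

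The largest Mup log2 changes had an RD library that stood apart. Mup17 was at 1269, 17.8 and 40.2 TPM on the regular diet and 6966, 18765 and 9606 TPM on the high-fat diet (6.76 ± 1.24, limma adjusted p = 0.00135). Mup15 was at 630, 9.48 and 28.0 TPM and then at 4151, 11379 and 5929 TPM (6.83 ± 1.40, limma adjusted p = 0.00271). RD replicate 1 was the high library in both, and also in Mup9 (530 against 80.7 and 71.3 TPM) and Mup19 (31639 against 4825 and 5701 TPM). In Mup19 that library overlapped the HFD livers at 27668, 46466 and 43129 TPM (2.0 ± 0.74, limma adjusted p = 0.0464, and 0.185 without RD replicate 2). When each of the 6 WT libraries was left out in turn, Mup2, Mup8, Mup9, Mup11, Mup13, Mup14, Mup15, Mup16 and Mup17 stayed called higher.

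The other 8 Mup genes were not called. Mup22, the most abundant of them on the regular diet, was at 38934, 28624 and 32736 TPM and then at 38297, 44276 and 41952 TPM (0.32 ± 0.14, limma adjusted p = 0.0767). Mup3 was at 11584, 11433 and 10462 TPM and then at 14647, 11691 and 15361 TPM (0.31 ± 0.17, limma adjusted p = 0.146). Mup20, also called darcin and the pheromone that draws females, was at 5720, 7799 and 9511 TPM and then at 8904, 15728 and 12624 TPM (0.69 ± 0.39, limma adjusted p = 0.169). Mup10 and Mup18 had lower means on the high-fat diet, with log2 differences of -0.75 and -0.54 and overlapping groups. Of 16 tested genes of the growth hormone, STAT5 and IGF1 axis, 4 were called lower and 0 higher as deposited (29.8% and 1.05% of all genes). Mup-free, 1 was lower and 1 higher, near the 4.28% and 2.60% of all genes. The prolactin receptor gene Prlr fell (Mup-free -1.21 ± 0.25, limma adjusted p = 0.00666). Igf1, at 376, 460 and 448 TPM and then 454, 397 and 407 TPM, was called only Mup-free (0.28 ± 0.08, limma adjusted p = 0.036, against -0.03 as deposited). It kept that call in 2 of 6 fits that left out a WT library. The STAT5 targets Socs2 and Cish were not called (-0.09 and -0.66 Mup-free).

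**Figure D1:**
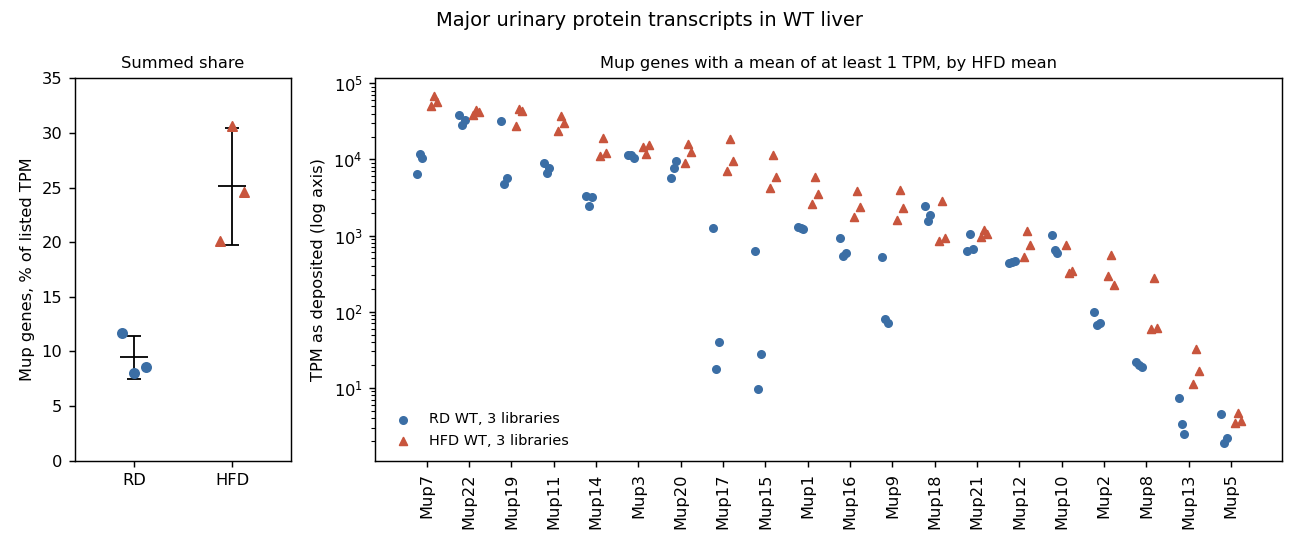
Share of the listed TPM taken by Mup genes in each WT library, with mean and SD (left, linear axis), and TPM of the 20 tested Mup genes in each library (right, log axis). Circles are RD and triangles HFD livers, and RD replicate 1 is the high circle of Mup15, Mup17, Mup19 and Mup9.

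As deposited, 111 genes were called higher and 3139 lower on the high-fat diet, which is 30.8% of those tested (1.05% higher and 29.8% lower). With Mup genes left out, 274 were called higher and 451 lower, 6.88% of 10531 tested (2.60% higher and 4.28% lower). With median-of-ratios scaling the counts were 468 higher (4.44%) and 372 lower (3.53%), 7.96% in all. With Mup genes and mitochondrial transcripts both left out they were 430 higher (4.09%) and 418 lower (3.97%), 8.06% of those tested. The share of calls that were lower was thus 96.6% as deposited, 62.2% Mup-free, 49.3% with mitochondrial transcripts also out and 44.3% with median-of-ratios scaling. The median log2 difference of all genes was -0.29 as deposited and -0.03 Mup-free. All 451 genes called lower Mup-free were among the 3139, while 2688 of the 3139 were not called Mup-free and none was called higher. Both scales called 89 genes higher (0.845%). The counts also leaned on single libraries. As deposited, 3250 calls became 1768 without RD replicate 2, 1383 without RD replicate 3 and 920 without HFD replicate 2. Mup-free, 725 calls became 437 without RD replicate 2, 365 without RD replicate 3, 433 without HFD replicate 1 and 286 without HFD replicate 2. HFD replicate 2 had the highest Mup share. Genes called on both scales and with each WT library left out in turn were 25 higher (0.237%) and 148 lower (1.41%), and these are termed stable.

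**Figure D2:**
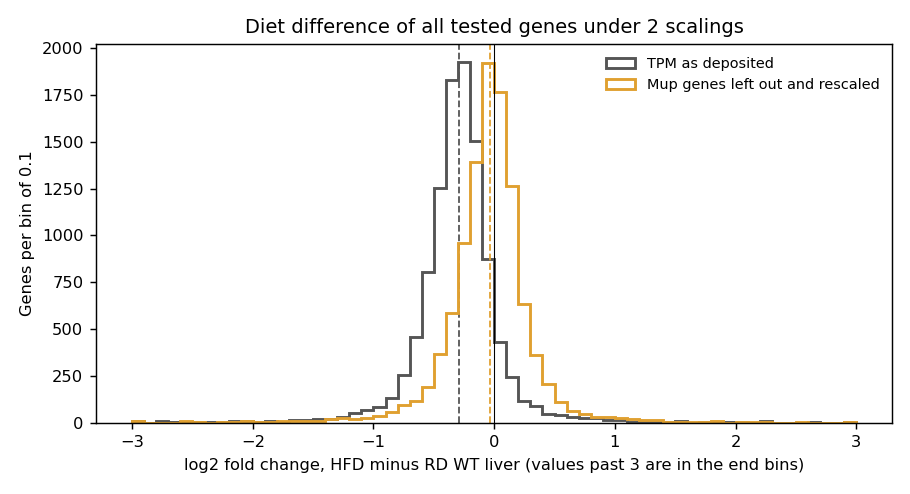
Number of genes by log2 fold change of HFD over RD in WT liver, in bins of 0.1, as deposited (grey) and with Mup genes left out (orange); dashed lines are medians. The deposited values centre at -0.29 and the Mup-free values at -0.03.

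In the group of cholesterol synthesis and uptake genes, all 23 tested members were called lower as deposited and 20 Mup-free, none was higher, and 17 were stable (median Mup-free -1.30, against -0.03 for all genes, of which 4.28% were called lower). The members called Mup-free spanned log2 differences of -2.60 to -0.46.

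The promoters of 5 of these genes are shown because the genes fell together. They are RefSeq windows of 200 bases before the annotated start (GRCm38.p6), 5′ to 3′ on the gene's strand. Capitals mark the sterol regulatory element TCACNCCAC, to which SREBP can bind, and the CCAAT box, to which NF-Y, a partner of SREBP, can bind. Both were searched on both strands (CCAAT reads ATTGG on the other strand).

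Hmgcs1, chr13:119690151-119690350, plus strand: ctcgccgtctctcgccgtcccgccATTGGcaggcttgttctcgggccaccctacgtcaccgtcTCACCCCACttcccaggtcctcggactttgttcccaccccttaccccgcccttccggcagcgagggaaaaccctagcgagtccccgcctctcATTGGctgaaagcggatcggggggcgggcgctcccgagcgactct

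Idi1, chr13:8885406-8885605, plus strand: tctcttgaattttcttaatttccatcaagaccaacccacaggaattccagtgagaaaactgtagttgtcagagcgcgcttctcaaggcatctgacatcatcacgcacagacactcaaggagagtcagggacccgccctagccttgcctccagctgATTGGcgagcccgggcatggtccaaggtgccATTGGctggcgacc

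Cyp51, chr5:4104698-4104897, minus strand: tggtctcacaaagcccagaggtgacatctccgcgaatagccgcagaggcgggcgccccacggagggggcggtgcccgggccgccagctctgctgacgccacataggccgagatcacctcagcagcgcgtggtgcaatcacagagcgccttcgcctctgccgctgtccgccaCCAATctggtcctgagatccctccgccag

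Mvd, chr8:122443423-122443622, minus strand: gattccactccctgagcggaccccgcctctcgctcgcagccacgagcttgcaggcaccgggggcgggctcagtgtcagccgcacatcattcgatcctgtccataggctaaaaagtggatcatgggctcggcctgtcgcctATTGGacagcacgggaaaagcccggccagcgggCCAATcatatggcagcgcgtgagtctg

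Nsdhl, chrX:72918321-72918520, plus strand: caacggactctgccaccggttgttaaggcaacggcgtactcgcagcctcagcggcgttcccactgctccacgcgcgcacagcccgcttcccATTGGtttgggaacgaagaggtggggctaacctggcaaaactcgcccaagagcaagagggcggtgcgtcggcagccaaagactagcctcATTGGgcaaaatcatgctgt

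Of the cholesterol list, 15 genes had an entry in the promoter table. CCAAT was present within 250 bases of the start in 15 of 15, against 37.5% of 27025 genes with a promoter there and 14 of 19 fatty acid synthesis genes. TCACNCCAC was present in 1 of 15, Hmgcs1, against 1.22% of all genes. Both are matches of letters and do not show binding.

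Hmgcs1, the synthase that opens the pathway (chromosome 13, 119690379 to 119708260), was at 59.9, 180 and 115 TPM on the regular diet and 17.4, 14.0 and 16 TPM on the high-fat diet (Mup-free -2.41 ± 0.30, limma adjusted p = 3.73e-05). Of the isoprenoid steps, Idi1 fell from 83.3, 187 and 108 to 21.4, 12.8 and 18.9 TPM (Mup-free -2.42 ± 0.24, limma adjusted p = 4.54e-06). Fdps, the farnesyl diphosphate synthase, fell from 153, 334 and 199 to 37.5, 20.5 and 29.5 TPM, with a Mup-free change of -2.60 ± 0.22 (limma adjusted p = 1.11e-06). The HFD livers of both genes were all below the lowest RD liver.

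Later in the pathway, Sqle, the squalene epoxidase, fell from 17.4, 47.9 and 30.3 to 5.18, 3.34 and 4.50 TPM (Mup-free -2.29 ± 0.25, limma adjusted p = 9.61e-06). Cyp51, the lanosterol demethylase, fell from 42.5, 76.3 and 55.3 to 13.2, 11.2 and 10.5 TPM (Mup-free -1.91 ± 0.17, limma adjusted p = 1.49e-06). Nsdhl, a sterol dehydrogenase, fell from 40.7, 67.0 and 53.3 to 11.0, 9.16 and 12.8 TPM, by 1.90 ± 0.17 on the Mup-free log2 scale (limma adjusted p = 1.49e-06). RD replicate 2 was the highest and RD replicate 1 the lowest RD liver for each of these 3 genes. Srebf2, which encodes SREBP2, fell by 0.72 on the Mup-free log2 scale (limma adjusted p = 0.00143). Insig1, the sterol-sensing brake on SREBP and itself a target of it, fell from 86.5, 128 and 126 to 32.3, 20.5 and 27.5 TPM (Mup-free -1.75 ± 0.16, limma adjusted p = 1.49e-06).

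**Figure D3:**
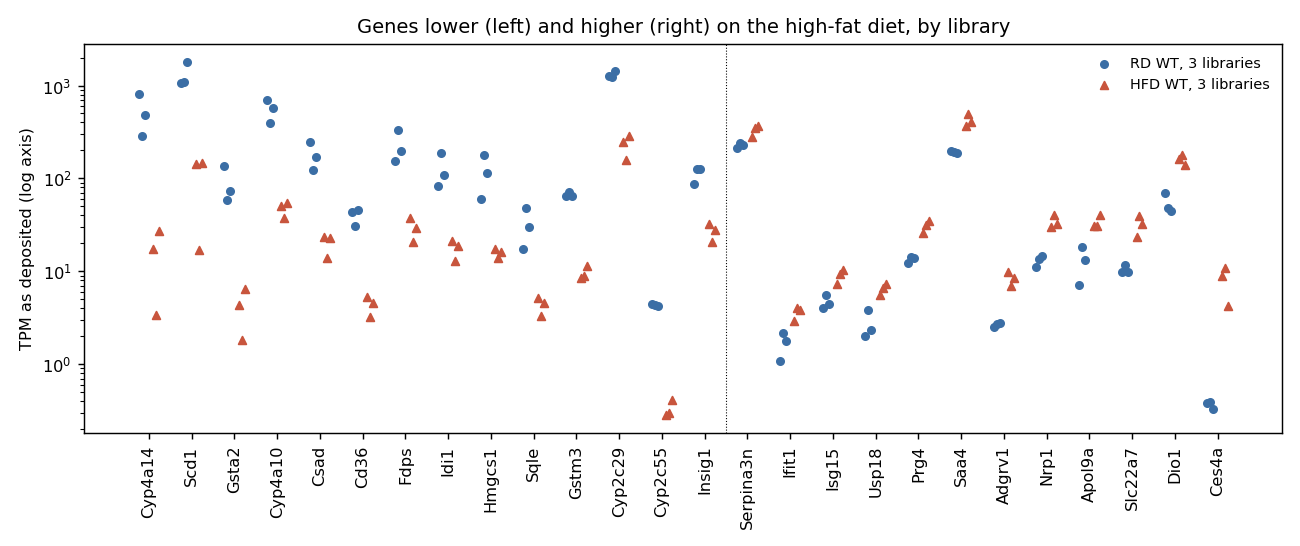
Deposited TPM (log axis) of 26 genes in each of the 6 WT libraries, circles RD and triangles HFD, with 14 genes that fell left of the dotted line and 12 that rose right of it. The 2 diets do not overlap for any gene shown.

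Fatty acid synthesis did not move as a block. Of 20 tested members, 9 were called lower and 1 higher as deposited, against 29.8% and 1.05% of all genes. Mup-free, 6 were called lower and 1 higher (median -0.06), against 4.28% and 2.60% of all genes. Scd1, the stearoyl-CoA desaturase (chromosome 19, 44394455 to 44407879), fell most, from 1074, 1104 and 1807 to 141, 16.8 and 148 TPM (Mup-free -3.86 ± 0.63, limma adjusted p = 8.27e-04). HFD replicate 2 was the lowest library for Scd1. Acss2, which makes acetyl-CoA from acetate, fell from 49.5, 86.4 and 82.1 to 24.2, 18.3 and 23.9 TPM (Mup-free -1.35 ± 0.25, limma adjusted p = 0.00246). The citrate carrier gene Slc25a1 (Mup-free -0.49 ± 0.11) and the malic enzyme gene Me1 (Mup-free -1.70) were also stable. The core synthase Fasn was at 60.5, 115 and 89.1 TPM and then 52.2, 41.4 and 43.7 TPM, called as deposited (-0.89, limma adjusted p = 0.0219) and not Mup-free (-0.59, limma adjusted p = 0.177). Acly behaved likewise, with -0.75 as deposited and -0.45 Mup-free. Srebf1, which encodes SREBP1, was at 40.4, 82.5 and 59.3 TPM and then 90.1, 39.7 and 69.8 TPM, with overlapping groups (Mup-free 0.42 ± 0.30, limma adjusted p = 0.455). Against the rest, Thrsp, a lipogenic nuclear protein also called Spot14, rose from 55.4, 186 and 124 to 300, 392 and 299 TPM (Mup-free 1.89 ± 0.47, limma adjusted p = 0.0197), though it was not called with every library left out.

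Of 9 tested desaturases and elongases, 3 fell and none was called higher (4.28% of all genes were called lower). Beside Scd1, these included Elovl5, which lengthens polyunsaturated fatty acids and fell from 157, 159 and 205 to 50.0, 42.8 and 57.7 TPM (Mup-free -1.47 ± 0.27, limma adjusted p = 0.00304). Fads1, a desaturase of polyunsaturated fatty acids, fell from 140, 169 and 159 to 88.6, 57.4 and 86.0 TPM (Mup-free -0.72 ± 0.14, limma adjusted p = 0.00386). Its neighbour in the pathway, Fads2, was at 213, 214 and 203 and then 218, 191 and 165 TPM and was not called (Mup-free 0.16 ± 0.21). Elovl3, a male-biased elongase, was at 232, 130 and 126 and then 40.4, 89.3 and 52.3 TPM (Mup-free -1.13, limma adjusted p = 0.0633).

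PPARα targets moved unevenly. The lowest log2 difference of all genes named here was that of Cyp4a14, a fatty acid omega-hydroxylase (chromosome 4, 115486200 to 115496142), which fell from 808, 288 and 482 to 17.5, 3.35 and 27.5 TPM (Mup-free -4.94 ± 0.69, limma adjusted p = 1.66e-04). Cyp4a10 fell from 691, 391 and 577 to 50.6, 37.9 and 54.5 TPM (Mup-free -3.19 ± 0.52, limma adjusted p = 8.74e-04). Cyp4a31 fell from 13.0, 12.7 and 12.5 to 3.60, 4.40 and 3.61 TPM (Mup-free -1.26 ± 0.19, limma adjusted p = 3.24e-04). Parts of Cyp4a10 and Cyp4a31 are shared with close copies: 55.1% and 68.0% of their 31-base words occur in no other gene. Of the 9 tested microsomal hydroxylases 3 fell (4.28% of all genes), all stable, and Cyp4v3 was called higher Mup-free only (0.39, limma adjusted p = 0.0141).

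Among 22 other PPARα targets, 7 were called lower and 0 higher as deposited, near the 29.8% lower and 1.05% higher of all genes. Mup-free, 5 were lower and 1 higher, against 4.28% lower and 2.60% higher of all genes. The fatty acid carrier gene Cd36 fell from 43.0, 30.5 and 46.0 to 5.32, 3.22 and 4.52 TPM (Mup-free -2.70 ± 0.38, limma adjusted p = 1.68e-04). The acyl-CoA thioesterase genes Acot1 (Mup-free -1.63 ± 0.28) and Acot2 (Mup-free -1.57 ± 0.24) fell too. Plin2, the lipid droplet coat gene, fell from 537, 309 and 303 to 128, 187 and 135 TPM (Mup-free -1.0 ± 0.26, limma adjusted p = 0.0253, and 0.116 without RD replicate 1). Ppara itself was at 54.8, 48.4 and 56.1 and then 47.6, 44.2 and 37.1 TPM (Mup-free -0.00 ± 0.12, limma adjusted p = 0.997). Pdk4, Fgf21 and Vnn1 were not called (Mup-free -0.78, -0.50 and -0.20).

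Calls among the central fat oxidation genes depended on the scale. Of 19 tested genes of mitochondrial fatty acid oxidation, 8 were called lower as deposited (29.8% of all genes) and 0 Mup-free, where 2 had an unadjusted p under 0.05 in limma (Mup-free median -0.06, range -0.28 to 0.06). Cpt1a, which admits fatty acids to mitochondria, was at 162, 152 and 129 and then 121, 109 and 107 TPM, a difference of -0.39 as deposited and -0.08 ± 0.08 Mup-free. Slc16a1, which carries ketone bodies and lactate across the cell membrane, fell from 16.8, 14.9 and 15.3 to 6.36, 8.10 and 6.94 TPM (Mup-free -0.77 ± 0.13, limma adjusted p = 0.00124). Of 20 peroxisomal genes 11 were called lower as deposited (29.8% of all genes) and 5 Mup-free (4.28% of all genes), with 1 to 4 Mup-free when a WT library was left out. Crot, which hands shortened fatty acids to carnitine, was the stable one, from 347, 298 and 348 to 149, 169 and 175 TPM (Mup-free -0.70 ± 0.14, limma adjusted p = 0.00587).

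Glutathione S-transferases, which attach glutathione to reactive compounds, were another group with many members that fell. Of 25 tested conjugation and glutathione genes, 18 were called lower as deposited and 13 Mup-free, none higher, and 10 were stable (Mup-free median -0.83, against -0.03 for all genes and 4.28% called lower). Gsta2 (chromosome 9, 78331018 to 78355788) fell from 135, 58.7 and 72.5 to 4.34, 1.82 and 6.38 TPM (Mup-free -3.92 ± 0.46, limma adjusted p = 2.43e-05). Gsta1 was at 11.3, 8.80 and 6.86 TPM on the regular diet and was listed at 0.259, 0 and 0.0791 TPM on the high-fat diet. Only 7.14% of the 31-base words of Gsta1 and 39.3% of those of Gsta2 occur in no other gene, so how the 2 share reads is uncertain. Gstm3, with 62.3% of its words unshared, fell from 64.4, 71.6 and 64.7 to 8.52, 8.92 and 11.4 TPM (Mup-free -2.41 ± 0.28, limma adjusted p = 2.43e-05). Gstm1, the most abundant of the family that fell, went from 1740, 1419 and 1514 to 501, 371 and 641 TPM (Mup-free -1.35, limma adjusted p = 0.00266). Gstp1, a male-biased member, went the other way without being called, from 1304, 1111 and 1183 to 1504, 1681 and 1656 TPM (Mup-free 0.74, limma adjusted p = 0.152). Nqo1, a quinone reductase, fell from 4.05, 4.94 and 6.59 to 1.40, 0.736 and 1.6 TPM (Mup-free -1.33 ± 0.23, limma adjusted p = 0.00161). Gclm, Srxn1 and Txnrd1 were not called Mup-free (-0.04, -0.26 and -0.02).

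Xenobiotic P450 genes were also among those that fell. Of 18 tested CAR and PXR targets, 12 were called lower as deposited (29.8% of all genes were), and Mup-free 6 were lower (4.28% of all genes) and Por, the P450 reductase gene, was higher (0.64, limma adjusted p = 0.0478). Cyp2c29 (chromosome 19, 39269405 to 39330713) fell from 1271, 1224 and 1417 to 244, 160 and 288 TPM (Mup-free -2.23 ± 0.26, limma adjusted p = 2.02e-05). Cyp2c55 fell from 4.47, 4.39 and 4.18 to 0.282, 0.300 and 0.412 TPM (Mup-free -2.01 ± 0.20, limma adjusted p = 4.54e-06). Cyp3a25 fell from 500, 403 and 413 to 152, 118 and 152 TPM (Mup-free -1.33 ± 0.20, limma adjusted p = 4.48e-04). In Cyp3a11, RD replicate 1 stood apart at 3338 TPM against 694 and 765 TPM, and the HFD livers were at 251, 291 and 352 TPM (Mup-free -1.72 ± 0.52, limma adjusted p = 0.0499, and 0.217 without RD replicate 1). Cyp2b10, the classic CAR target, was near the floor at 3.17, 0.973 and 2.64 and then 0.236, 0.353 and 0.574 TPM, and was not called (Mup-free -1.13, limma adjusted p = 0.164). The receptors' own genes Nr1i3 (CAR) and Nr1i2 (PXR) were called lower as deposited only (Mup-free -0.59 and -0.24).

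Among sulfur amino acid genes, Csad, which makes taurine from cysteine (chromosome 15, 102176999 to 102204724), fell from 247, 124 and 172 to 23.6, 14.0 and 23.1 TPM (Mup-free -2.79 ± 0.21, limma adjusted p = 2.65e-07). Cth, which makes cysteine, fell from 401, 292 and 276 to 100, 82.9 and 110 TPM (Mup-free -1.40 ± 0.19, limma adjusted p = 1.51e-04). Of 16 tested methionine and one-carbon genes, 3 were called lower Mup-free (4.28% of all genes), Cth, Mat1a (-0.55) and Cbs (-0.43), and none higher. Mat1a and Cbs were each called in 2 of 6 fits that left out a WT library. Etnppl, which breaks down phosphoethanolamine, fell from 97.7, 51.2 and 79.2 to 13.9, 8.44 and 9.63 TPM (Mup-free -2.43 ± 0.31, limma adjusted p = 6.16e-05). Oat, the ornithine aminotransferase, fell from 763, 591 and 648 to 202, 251 and 223 TPM (Mup-free -1.25 ± 0.18, limma adjusted p = 1.78e-04). Of 29 tested amino acid and urea cycle genes, 9 were called lower as deposited, a share near the 29.8% of all genes. Mup-free, none was called lower, 5 were lower at an unadjusted limma p under 0.05, and Otc and Kmo were called higher (both 0.31).

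Among genes outside the Mup family that rose, Ces4a, a carboxylesterase (chromosome 8, 105131800 to 105150109), rose from 0.384, 0.390 and 0.331 to 8.89, 11.0 and 4.26 TPM (Mup-free 3.01 ± 0.36, limma adjusted p = 2.45e-05). Dio1, the deiodinase that activates thyroid hormone (chromosome 4, 107291465 to 107307169), rose from 70.3, 48.5 and 45.0 to 162, 179 and 140 TPM (1.56 ± 0.14 as deposited and 1.86 ± 0.15 Mup-free, limma adjusted p = 5.76e-07). Slc22a7, an organic anion transporter, rose from 9.88, 11.7 and 9.84 to 23.4, 39.3 and 31.9 TPM (Mup-free 1.79 ± 0.24, limma adjusted p = 1.45e-04). Nrp1, a co-receptor for VEGF and semaphorins (chromosome 8, 128358604 to 128503363), rose from 11.2, 13.4 and 14.6 to 30.2, 40.2 and 32.2 TPM (Mup-free 1.63 ± 0.26, limma adjusted p = 6.48e-04). Its paralog Nrp2 fell from 3.42, 3.89 and 4.28 to 1.40, 0.549 and 1.69 TPM (Mup-free -1.05 ± 0.20, limma adjusted p = 0.00391). Adgrv1, an adhesion receptor, rose from 2.48, 2.72 and 2.80 to 9.76, 7.02 and 8.43 TPM (Mup-free 1.65 ± 0.18, limma adjusted p = 8.97e-06). Prg4, which encodes lubricin, rose from 12.2, 14.4 and 14.0 to 25.5, 31.5 and 34.8 TPM (Mup-free 1.42 ± 0.15, limma adjusted p = 8.97e-06). These 6 risers were stable. Rgs16, a G protein regulator, rose from 20.4, 35.6 and 22.6 to 64.8, 78.9 and 85.6 TPM (Mup-free 1.85 ± 0.50, limma adjusted p = 0.0306), and Nrep from 4.37, 12.3 and 9.08 to 32.9, 24.7 and 30 TPM (Mup-free 2.06 ± 0.50, limma adjusted p = 0.0179); both lost their call when single libraries were left out.

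Of 17 tested interferon-response genes, 5 were called higher and 1, Bst2, lower as deposited, and Mup-free 10 were higher and none lower (median 0.70, with 2.60% of all genes called higher). Usp18, a brake on interferon signalling, rose from 1.99, 3.83 and 2.33 to 5.57, 6.55 and 7.24 TPM (Mup-free 1.33 ± 0.24, limma adjusted p = 0.00198). Isg15, a ubiquitin-like protein, rose from 4.07, 5.53 and 4.45 to 7.30, 9.45 and 10.4 TPM (Mup-free 1.12 ± 0.21, limma adjusted p = 0.00314). Ifit1 rose from 1.08, 2.18 and 1.76 to 2.95, 4.02 and 3.85 TPM (Mup-free 1.08 ± 0.20, limma adjusted p = 0.00271). These 3 were stable, and the levels were low throughout. Between 5 and 11 members were called Mup-free when 1 WT library was left out. Apol9a, an interferon-inducible apolipoprotein outside the list, rose from 7.08, 18 and 13.3 to 30.8, 30.7 and 40.7 TPM (Mup-free 1.73 ± 0.26, limma adjusted p = 4.19e-04).

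Of 23 tested acute phase genes, 2 were called higher and 4 lower as deposited, against 1.05% and 29.8% of all genes. Mup-free, 3 were called higher (2.60% of all genes) and 1 lower, a share near the 4.28% of all genes. Saa4 rose from 198, 194 and 189 to 368, 492 and 408 TPM (Mup-free 1.42 ± 0.29, limma adjusted p = 0.00643). Serpina3n rose from 213, 240 and 229 to 277, 352 and 364 TPM (Mup-free 0.84 ± 0.13, limma adjusted p = 4.19e-04). Saa1 was at 66.9, 87.8 and 67.7 and then 89.3, 639 and 180 TPM, with HFD replicate 2 far above the rest, and was not called (Mup-free 1.86 ± 0.70, limma adjusted p = 0.121). Apcs, the serum amyloid P component, fell from 208, 281 and 256 to 67.6, 36.7 and 76.8 TPM (Mup-free -1.78 ± 0.51, limma adjusted p = 0.0395). It was called Mup-free in 1 of 6 fits that left out a WT library (limma adjusted p up to 0.169, without HFD replicate 2), and its call as deposited was lost without HFD replicate 2.

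In bile acid synthesis, Cyp7a1, the rate-limiting enzyme, was at 26.3, 72.3 and 32.6 and then 35.2, 47.0 and 25.4 TPM and was not called (Mup-free 0.12 ± 0.67). Cyp8b1, which sets the cholic acid share, fell from 390, 224 and 193 to 78.2, 85.1 and 110 TPM (Mup-free -1.19 ± 0.34, limma adjusted p = 0.0419, and 0.165 without RD replicate 1). Cyp2c70, which makes muricholic acids in mice, rose from 203, 290 and 376 to 608, 505 and 459 TPM (Mup-free 1.20 ± 0.30, limma adjusted p = 0.02, and 0.0832 without RD replicate 1). The bile acid exporter gene Abcc3 fell from 93.5, 87.2 and 98.1 to 28.0, 16 and 35.8 TPM (Mup-free -1.54 ± 0.26, limma adjusted p = 0.00143). Of 20 tested members of this group, 11 were called lower and 1 higher as deposited (29.8% and 1.05% of all genes). Mup-free, 3 were lower and 1 higher (4.28% and 2.60% of all genes), with 1 to 3 lower when a WT library was left out. Cyp27a1 (Mup-free -0.41) was the third called lower, in 3 of 6 fits that left out a WT library. Among 9 tested cholesterol efflux and oxysterol receptor targets, Abca1 and Scarb1 were called higher Mup-free (0.65 and 0.45) and neither as deposited. Of all genes, 2.60% were called higher Mup-free, and of these 9, 0 to 2 were when a WT library was left out.

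Of 19 tested glucose genes, 3 were called lower as deposited (29.8% of all genes), and Pygl alone was called Mup-free (0.51, higher). Pck1 was at 1612, 932 and 852 and then 790, 732 and 512 TPM (Mup-free -0.39 ± 0.31, limma adjusted p = 0.504). G6pc was at 237, 180 and 211 and then 225, 154 and 159 TPM (Mup-free 0.07 ± 0.33, limma adjusted p = 0.934). Foxo1 was at 4.54, 4.14 and 4.25 and then 4.74, 5.52 and 4.06 TPM (Mup-free 0.38 ± 0.13, limma adjusted p = 0.0908). Of 18 insulin and FoxO1 targets, 6 were called lower and 1 higher as deposited (29.8% and 1.05% of all genes). Mup-free, 1 was lower and 1 higher, near the 4.28% and 2.60% of all genes. Eif4ebp3 rose from 121, 81.0 and 64.0 to 245, 128 and 185 TPM (Mup-free 1.37 ± 0.34, limma adjusted p = 0.0188) and was called Mup-free in 3 of 6 fits that left out a WT library. Trib3 fell from 8.25, 7.50 and 7.85 to 1.71, 1.75 and 4.50 TPM (Mup-free -1.16 ± 0.33, limma adjusted p = 0.0369) and was called in 1 of 6 (limma adjusted p up to 0.155, without HFD replicate 1). Igfbp1 was not called (Mup-free 0.01 ± 0.62).

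**Figure D4:**
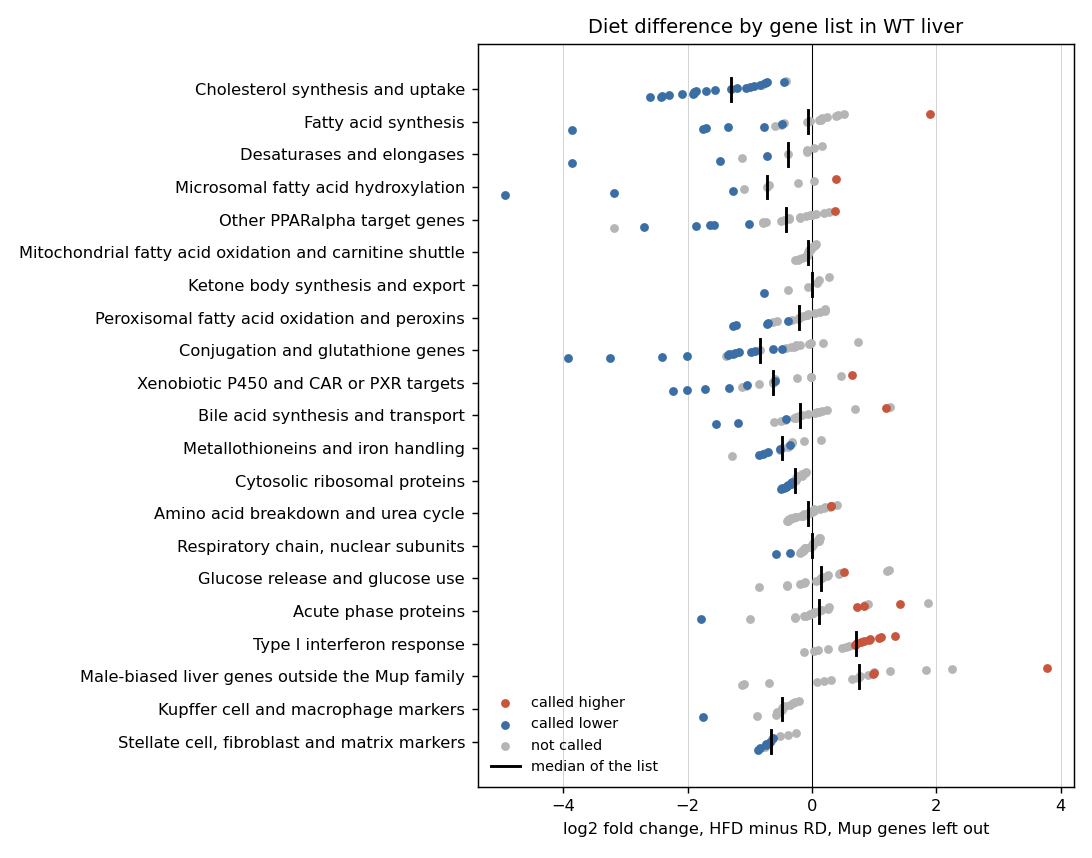
Mup-free log2 fold change of HFD over RD for each tested member of 21 gene lists, 1 row a list, with called genes coloured and the list median as a black bar. The cholesterol list lies wholly below 0 with a median of -1.30, mitochondrial fat oxidation sits at -0.06 and the interferon list at 0.70.

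Male-biased genes outside the Mup family had a Mup-free median of 0.76, against -0.03 for all genes. Of 18 tested, 3 were called higher Mup-free, and also as deposited, while Elovl3 and Cyp4a12a were called lower as deposited only. Among all genes, 2.60% were called higher Mup-free, and 1.05% higher and 29.8% lower as deposited. Slco1a1, an organic anion carrier, rose from 140, 192 and 179 to 319, 317 and 196 TPM (Mup-free 0.98 ± 0.19, limma adjusted p = 0.00439). Nudt7 rose from 386, 546 and 435 to 744, 708 and 735 TPM (Mup-free 1.0 ± 0.24, limma adjusted p = 0.0148). Selenbp2 ranged from 3.84 to 156 TPM in RD and from 147 to 1109 TPM in HFD livers, overlapping as deposited, and only 40.7% of its 31-base words occur in no other gene. None of these 3 was stable. The steroid dehydrogenase gene Hsd3b5 was at 82.8, 193 and 159 and then 229, 225 and 211 TPM and was not called (Mup-free 1.0 ± 0.37, limma adjusted p = 0.116). Of 11 tested female-biased genes, 6 were called lower as deposited (29.8% of all genes) and 1, Abcd2, Mup-free (-1.27, with 4.28% of all genes called lower). Abcd2 was called Mup-free in 1 of 6 fits that left out a WT library (limma adjusted p up to 0.235, without HFD replicate 2). All 11 Mup-free differences were below 0, with 6 at an unadjusted limma p under 0.05. The 4 tested Y chromosome genes (Ddx3y, Eif2s3y, Kdm5d and Uty) were not called on either scale. They summed to 46.8, 61.6 and 61.4 TPM in RD and 57.6, 44.1 and 49.8 TPM in HFD livers.

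Counts for other processes depended on the scale. Of all tested genes, 29.8% were called lower and 1.05% higher as deposited, and 4.28% lower and 2.60% higher Mup-free. Of 27 cytosolic ribosomal protein genes, 25 were called lower as deposited and 9 Mup-free, and 0 to 12 Mup-free when a WT library was left out. All 27 Mup-free differences were below 0, between -0.49 and -0.10. Of 27 nuclear respiratory chain genes, 15 were called lower as deposited and 2 Mup-free (median -0.01). Of 15 iron and metal genes, 5 were called lower Mup-free and none higher. Hfe, the hemochromatosis gene, fell from 21.0, 22.2 and 19.1 to 9, 8.78 and 9.02 TPM (Mup-free -0.85 ± 0.12, limma adjusted p = 1.45e-04), and the ferritin light chain gene Ftl1 fell from 5746, 3873 and 4196 to 2235, 2115 and 2407 TPM (Mup-free -0.70 ± 0.16, limma adjusted p = 0.0104). Of 22 stress response genes, 1 was called higher and 3 lower as deposited. Mup-free, Creld2, Manf and Xbp1 were called higher (1.29, 0.90 and 0.80) and Trib3 lower, but when 1 WT library was left out only 0 to 1 was higher and 0 to 1 lower. Of 19 clock genes, 17 were tested and none was called Mup-free, with 4 at an unadjusted limma p under 0.05. The clock gene Arntl was too low to be tested. It was at 1.14, 0.813 and 1.07 TPM in RD and 0.391, 0.363 and 0.254 TPM in HFD livers. None of 9 tested immediate early genes was called Mup-free, with 2 at an unadjusted limma p under 0.05.

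The libraries read as liver: all 13 hepatocyte markers were tested, and their summed level was 106369 to 110644 TPM in RD and 62212 to 79707 TPM in HFD livers, or 116651 to 126744 and 93802 to 108746 on the Mup-free scale. In bulk tissue, fewer cells of a type and less RNA per cell cannot be told apart. The 14 Kupffer cell and macrophage markers were all tested and all had Mup-free differences below 0 (median -0.48, against -0.03 for all genes). Their summed Mup-free level was 232 to 351 in RD and 147 to 280 in HFD livers. As deposited, 2 were called lower (29.8% of all genes), with 1 to 11 when a WT library was left out. Mup-free, 1 was called lower (4.28% of all genes). This was Marco, which fell (-1.75 ± 0.47) and was called Mup-free in 2 of 6 fits that left out a WT library. Stellate cell and matrix markers summed to 241 to 349 in RD and 146 to 181 in HFD livers Mup-free. Of their 12 tested genes, 10 were called lower as deposited (29.8% of all genes) and 6 Mup-free (4.28% of all genes), among them Dcn (-0.83 ± 0.18) and Reln (-0.86 ± 0.20), with 0 to 8 when a WT library was left out. RD replicate 2 was the highest library for both sums. Of 13 exocrine pancreas markers 9 were at 0 in all WT libraries, and Cela1 rose from 39.7, 51.9 and 41.5 to 62.1, 56.6 and 67.5 TPM. Of 10 adipocyte markers 4 were at 0 in all WT libraries. Their summed Mup-free level was 958 to 1858 in RD and 719 to 1118 in HFD livers, and none of 3 tested was called, with 0 at an unadjusted limma p under 0.05. Nearly all of this sum was Pck1, which is also 1 of the glucose genes above, so it says little about adipocytes. As deposited, the list summed to 1622, 952 and 867 TPM in RD and 805, 741 and 527 TPM in HFD livers. The part of these cell types in the results was not tested.

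The same genes were read in knockout livers, whose fold changes come from other libraries than those of WT. The knockout libraries did enter the expression filter and the fit that set each gene's variance. They thus had a part in which genes were called in WT: Mup-free, 725 were called, and 378 with only the compared groups in the fit. Of the 274 genes called higher in WT on the Mup-free scale, 237 were higher on the high-fat diet in LFKO (86.5%, against 45.0% of all tested genes), 199 in LPKO (72.6%, against 27.0%) and 232 in LFPKO livers (84.7%, against 42.8%). Of the 451 called lower in WT, 414 (91.8%), 413 (91.6%) and 417 (92.5%) were lower, against 55.0%, 73.0% and 57.2% of all tested genes. The genes were chosen by their WT values, so a smaller difference elsewhere is built into the choice. The cholesterol list had a Mup-free median of -0.66 in LFKO, -0.48 in LPKO and -1.0 in LFPKO livers. Of its 23 genes, 7 had a diet difference in LPKO that departed from that in WT (limma interaction, Mup-free). Fdps, for one, was 229 ± 94.2 and then 29.2 ± 8.50 TPM in WT, and 373 ± 59.9 and then 230 ± 81.8 TPM in LPKO livers (SD, n = 3). Cyp4a14 was 526 ± 263 and then 16.1 ± 12.1 TPM in WT, and 715 ± 94.3 and then 467 ± 316 TPM in LFKO livers (SD, n = 3). In LPKO livers, which lack PPARα, it was 21.4 ± 15.4 and then 6.99 ± 4.31 TPM (SD, n = 3). The LFKO interaction was not called (Mup-free 4.09, limma adjusted p = 0.116). Over all genes the interaction was called for 3 genes in LFKO (0.0285%), 57 in LPKO (0.541%) and 27 in LFPKO (0.256%) Mup-free, and for 1 (0.00948%), 18 (0.171%) and 3 (0.0284%) as deposited.

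**Figure D5:**
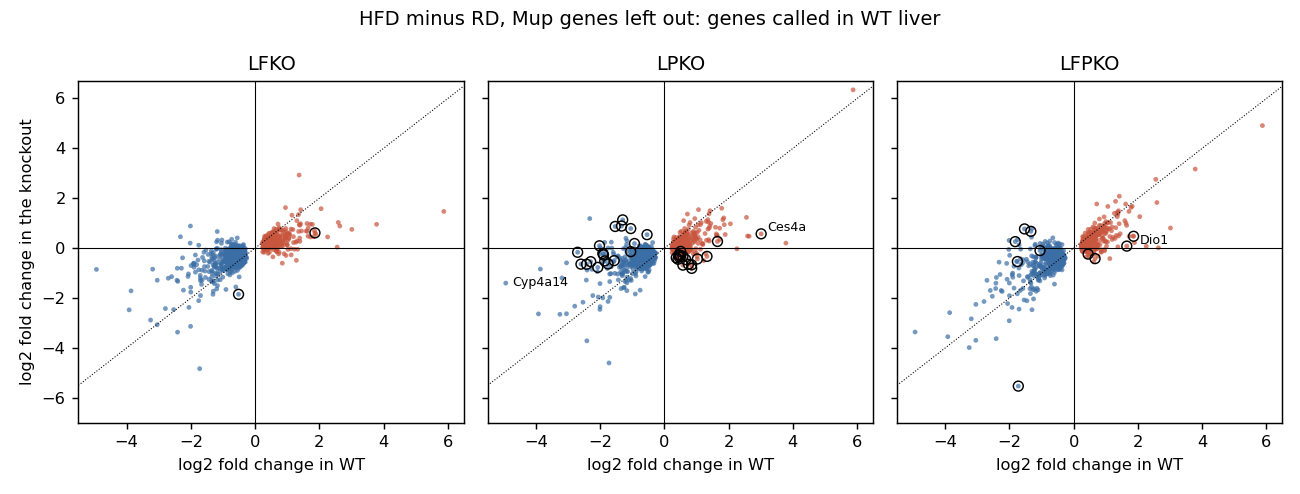
Mup-free log2 fold change of HFD over RD in WT livers (x) and in each knockout (y) for genes called in WT, red higher and blue lower, with the line of equal change dotted. Rings mark genes whose diet difference departs from that in WT (limma interaction adjusted p under 0.05), and most points lie on the WT side of 0.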

How the data were processed

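Liver mRNA libraries were quantified by the authors with kallisto, per the submitters' processing notes, which also name mm10 and GRCm38. No source used here gives the kallisto version or the annotation. The deposited table holds TPM per gene and library for 34945 named genes, and its listed values summed to 956785 to 991091 in the WT libraries. A line without a gene name held 0.0104% to 0.0250% and was left out. TPM keeps no read count, so precision rests on the spread of 3 libraries a group.

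Genes with a mean of at least 1 TPM over the 24 libraries were tested (10551) on log2(TPM + 1) with limma 3.58.1 (trend) in R 4.3.3. All 8 groups entered 1 fit with 16 residual degrees of freedom, and Benjamini-Hochberg adjustment ran over all tested genes. The Mup-free scale left out the 20 tested and other named Mup genes, without pseudogenes. Correlations of log2 values were 0.981 to 0.989 within and 0.963 to 0.975 between WT groups. The scripts were tested on simulated data. Figures used matplotlib 3.10.9.

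Genes named are those with a role in the question, the 15 highest and 15 lowest called non-overlapping genes of at least 5 TPM, up to 4 genes a list, all tested Mup genes and up to 5 genes an interaction. Other list members were chosen after their values were seen. The comparison, gene lists and named genes were chosen with earlier results of these data known. Alternatives were other scalings, filters, a smaller pseudocount, a fit of only the compared groups, a block for replicate number and each library left out in turn. Sequences are from RefSeq and positions from GENCODE. Some list members are not reported here.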

Additional observations from a re-analysis of the deposited data

Results flagged for a closer look

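Results are listed here because the diet difference in a knockout departed from that in WT by a test of the difference itself (limma interaction, adjusted p as deposited). In LPKO livers, 5 cholesterol genes had a less negative diet difference than in WT, by 1.88 for Cyp51 (limma adjusted p = 0.00538), 2.15 for Fdps (limma adjusted p = 0.0133), 1.96 for Idi1 (limma adjusted p = 0.0323), 1.80 for Nsdhl (limma adjusted p = 0.00723) and 1.88 for Sqle (limma adjusted p = 0.0411). Also in LPKO, the difference departed by 2.21 for Aqp4, a water channel gene (limma adjusted p = 0.0204), by 1.85 for Nrp2 (limma adjusted p = 0.00723) and by -2.17 for Ces4a (limma adjusted p = 0.0442). In LFKO livers it departed by -3.40 for Cyp2c69 (limma adjusted p = 0.0185), of whose 31-base words 35.1% occur in no other gene. In LFPKO livers it departed by -1.29 for Dio1 (limma adjusted p = 0.0250), which was 54.6 ± 13.7 and then 160 ± 19.5 TPM in WT and 108 ± 3.64 and then 130 ± 18.3 TPM in LFPKO livers (SD, n = 3).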

How the results depend on the processing

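The 3250 WT calls became 725 with Mup genes left out, 848 with mitochondrial transcripts left out too and 840 with median-of-ratios scaling. The Mup-free count was 378 with only the compared groups in the fit and 714 with the replicate block. Leaving out 1 library gave 920 to 3590 calls, and Mup-free 532, 437 and 365 without RD replicates 1, 2 and 3 and 433, 286 and 650 without HFD replicates 1, 2 and 3. The LFKO interaction count of 1 was 0 with pseudocount 0.1, 4 with no filter, 4 at a mean of at least 5 TPM, 3 Mup-free, 2 with median-of-ratios, 4 with only the compared groups, 4 Mup-free with the replicate block and 0 to 90 with 1 library left out, the 90 without HFD_LFKO replicate 1. The LPKO count of 18 was 10 with no filter, 57 Mup-free, 50 with mitochondrial transcripts also out, 50 with median-of-ratios, 8 with the replicate block, 70 with both the block and Mup genes out, and 3 to 60 with 1 library left out. The LFPKO count of 3 was 27, 21 and 22 under the 3 scalings in that order, 0 with only the compared groups, 8 with the replicate block, 20 with the block Mup-free, and 0 to 22 with 1 library left out. For each WT library, the Mup-free log2 deviations from its group mean were compared between the diets. Those of same-numbered libraries correlated at -0.04, -0.09 and -0.05, and 0 of 6 correlated best with their own number. The numbers were therefore not taken as pairs, and the block left 3100 WT calls. A sign change was counted only where a value was called. Igf1 was -0.03 as deposited, 0.28 Mup-free, 0.34 with mitochondrial transcripts also out, 0.34 with median-of-ratios, 0.28 Mup-free with the replicate block, and 0.31 and 0.32 Mup-free without HFD_WT replicate 3 and RD_WT replicate 2. Mup-free without RD_WT replicate 1, Cpt1a was 0.00676. The cause was not tested.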
